A study of Mus musculus with 24 samples.

Results

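The genes described here code for receptors of extracellular nucleotides and adenosine and for 2 of the surface enzymes that convert one into the other. They are the P2X receptors P2rx4 and P2rx7, the P2Y receptors P2ry6, P2ry12, P2ry13 and P2ry14, the ectonucleotidases Entpd1 and Nt5e, and the adenosine receptors Adora1 and Adora3. These 10 genes were chosen by name, with earlier results of these data known, from the 36333 genes of the deposited expression table. Counts of them beside the share of all genes are therefore descriptions and not tests. All 10 reached an average of 0.5 TPM across libraries, the minimum for testing, which 17267 genes met. TPM, the abundance unit used throughout, is by definition a read count divided by gene length and scaled to the same sum in every library. The methods add that the software calls this unit CPM, a name for values that are not divided by length. Comparisons of levels between different genes hold only if length was divided out, which was not tested.

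The tissue came from 24 male mice at 5 days after surgery (dpi), with 1 RNA-seq library per mouse. In 20 of them a traumatic brain injury (TBI) was set by controlled cortical impact, which drives a piston into the exposed cortex. The other 4 were Sham mice, which had anesthesia and a skin incision without opening of the skull. In comparisons with Sham, opening of the skull and impact cannot be told apart, and injury stands for both. Injured mice received Vehicle, PLX3397, Anakinra or PLX3397+Anakinra, with 5 mice in each group. PLX3397 blocks the colony stimulating factor receptor CSF1R, on which microglia depend for survival. It was given in chow at 290 mg per kg of food from 90 min after the injury. Anakinra blocks the interleukin-1 receptor IL1R1 and was injected subcutaneously at 100 mg per kg. The first injection came 5 min after the injury, the others once a day after that, and none is listed at 4 or 5 dpi. The labels give the strain as C57BL6N and an age of 12 to 16 weeks, while the methods of the study name another C57BL/6 substrain and a narrower age range. The labels name the tissue cortex, while the methods describe sections with cortex, striatum, dorsal hippocampus and thalamus. All 7 genes of a striatal projection neuron list were above 0.5 TPM, with a summed level of 1120 to 1860 TPM per mouse. Without samples of cortex alone, the region this RNA came from was not tested. Of all the animal numbers, only those of the Vehicle mice carry the letter B, so a difference that goes with this letter and an effect of treatment against Vehicle cannot be told apart.

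ATP leaves damaged and active cells and opens P2X channels, while ADP, UDP and UDP-sugars act on G protein coupled P2Y receptors. Entpd1 (CD39) removes phosphates from ATP and ADP to give AMP, and Nt5e (CD73) turns AMP into adenosine, the ligand of the adenosine receptors. In the brain, P2ry12 is a marker of resting microglia and guides their processes toward ADP, whereas Adora1 sits mainly on neurons and dampens transmitter release.

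On build GRCm38 (GENCODE annotation), 3 of the P2Y receptor genes lie in a row on the minus strand of chromosome 3. They are P2ry14 (59113855 to 59153618), P2ry13 (59207892 to 59210882) and P2ry12 (59216272 to 59262871), and all of them lie within the plus-strand gene Med12l. Only 5389 bases separate P2ry13 from P2ry12, and 54273 separate P2ry14 from P2ry13. The P2X receptor genes are also neighbours, with P2rx7 at 122643911 to 122691432 and P2rx4 at 122707544 to 122729738 on the plus strand of chromosome 5, 16111 bases apart. P2ry6 is at 100937630 to 100974649 on chromosome 7, Nt5e at 88327197 to 88372092 on chromosome 9, Entpd1 at 40612366 to 40741602 on chromosome 19 and Adora1 at 134199223 to 134235431 on chromosome 1. The annotated exons of Adora1 share 20.1% of their bases with Mybph, which runs on the opposite strand, and those of Adora3 (105870858 to 105908926 on chromosome 3) share 20.9% with Tmigd3. As no use of strand is stated for the counting, reads from these shared bases could be given to either gene. Mybph was at 0 to 1.24 TPM and Tmigd3 at 0 to 0.156 TPM over the 24 libraries.

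The sequence just before a gene's start was read from the RefSeq promoter table (GRCm38.p6), which held 15 promoters for 9 of the 10 genes. Shown are the 120 bases before the start of P2ry13, which lies next to P2ry12 and varied with it, of Adora3, of P2rx4 and of Adora1, the gene with the opposite response to injury. They are written 5′ to 3′ on the strand of the gene. Capitals mark GAGGAA, a purine-rich form of the site bound by ETS factors such as the myeloid factor PU.1, or its reverse complement TTCCTC. The shorter ETS core GGAA was not searched for, so a window without capitals can still hold an ETS site. The start of Adora3 used by RefSeq lies inside the longer Adora3 locus of GENCODE given above, and the bases after the RefSeq start of Adora1 were not found in a GENCODE transcript of that gene. The window before P2ry12 is not shown because it overlaps an annotated exon of Med12l.
P2ry13, chr3:59210883-59211002, minus strand: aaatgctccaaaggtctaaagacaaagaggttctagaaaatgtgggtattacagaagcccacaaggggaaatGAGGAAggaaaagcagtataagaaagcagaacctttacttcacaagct
Adora3, chr3:105904301-105904420, plus strand: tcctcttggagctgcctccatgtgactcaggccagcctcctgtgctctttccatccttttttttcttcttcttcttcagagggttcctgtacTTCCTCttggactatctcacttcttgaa
P2rx4, chr5:122707424-122707543, plus strand: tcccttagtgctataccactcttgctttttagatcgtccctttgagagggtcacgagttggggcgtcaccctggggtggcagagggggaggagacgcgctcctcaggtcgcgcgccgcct
Adora1, chr1:134235458-134235577, minus strand: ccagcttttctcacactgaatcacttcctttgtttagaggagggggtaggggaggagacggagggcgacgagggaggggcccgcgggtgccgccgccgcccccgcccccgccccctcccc
The shown windows of P2ry13 and Adora3 hold GAGGAA and those of P2rx4 and Adora1 do not, and 11.6% of all 32851 windows of this length hold it. Among the windows not shown, some of P2ry14 hold it, and those of P2ry12, P2rx7, Entpd1 and Nt5e do not. Guanine and cytosine make up 40.0% of the P2ry13 window, 47.5% of that of Adora3, 61.7% of that of P2rx4 and 70.8% of that of Adora1. Over the whole promoters (250 bases before to 50 after the start, both strands searched), GAGGAA was found in 9 of the 15 promoters, belonging to 5 genes, against 28.3% of all promoters. The genes are P2ry14, P2ry13, Adora3, P2rx7 and Entpd1, and a link of the motif to the response of a gene was not tested. The windows of P2ry14 overlap one another in part, so these 9 are not independent. The longer form GAGGAAGT, which contains GAGGAA, was in 2 of the 15 (3.2% of all promoters), and the AP-1 motif TGACTCA was in 3 (5.2%), those of P2ry14, Adora3 and P2rx7. The STAT motif TTCNNNGAA (8.3% of all promoters) and the interferon response type motif, which is GAAA, any 2 bases and GAAA (3.44%), were in 0 of the 15.

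Every library summed to the same total, as TPM values must, so sequencing depth is unknown and the counting error of the values cannot be estimated. From 22160 to 23249 genes were above 0 in a library. All 10 genes of a microglial marker list were detected in every group, with a summed level of 371 to 389 TPM in Sham, 1520 to 1970 TPM in Vehicle, 671 to 1020 TPM with PLX3397 and 605 to 805 TPM with PLX3397+Anakinra. With fewer microglia and with less RNA per microglial cell the values in bulk tissue would be the same, and the 2 cannot be told apart here.

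To ask how injury changed nucleotide and adenosine signalling genes, Vehicle mice were compared with Sham mice. Injury raised 9 of the 10 genes and lowered 1, Adora1. The test was limma on log2(TPM + 1) over all 24 libraries and 17267 genes, with Benjamini-Hochberg adjusted p below 0.05 as the threshold. Among all genes tested, 26.6% were called higher and 27.7% lower in the same comparison. The median log2 fold change of the 10 genes was 0.94, and that of all genes tested was -0.01. Vehicle and Sham mice did not overlap for 8 of the 10 genes, against 42.7% of all genes tested. As 1 TPM is added before the logarithm, a fold change understates the change of genes at a few TPM, such as Adora3 and P2ry14.

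**Figure D1:**
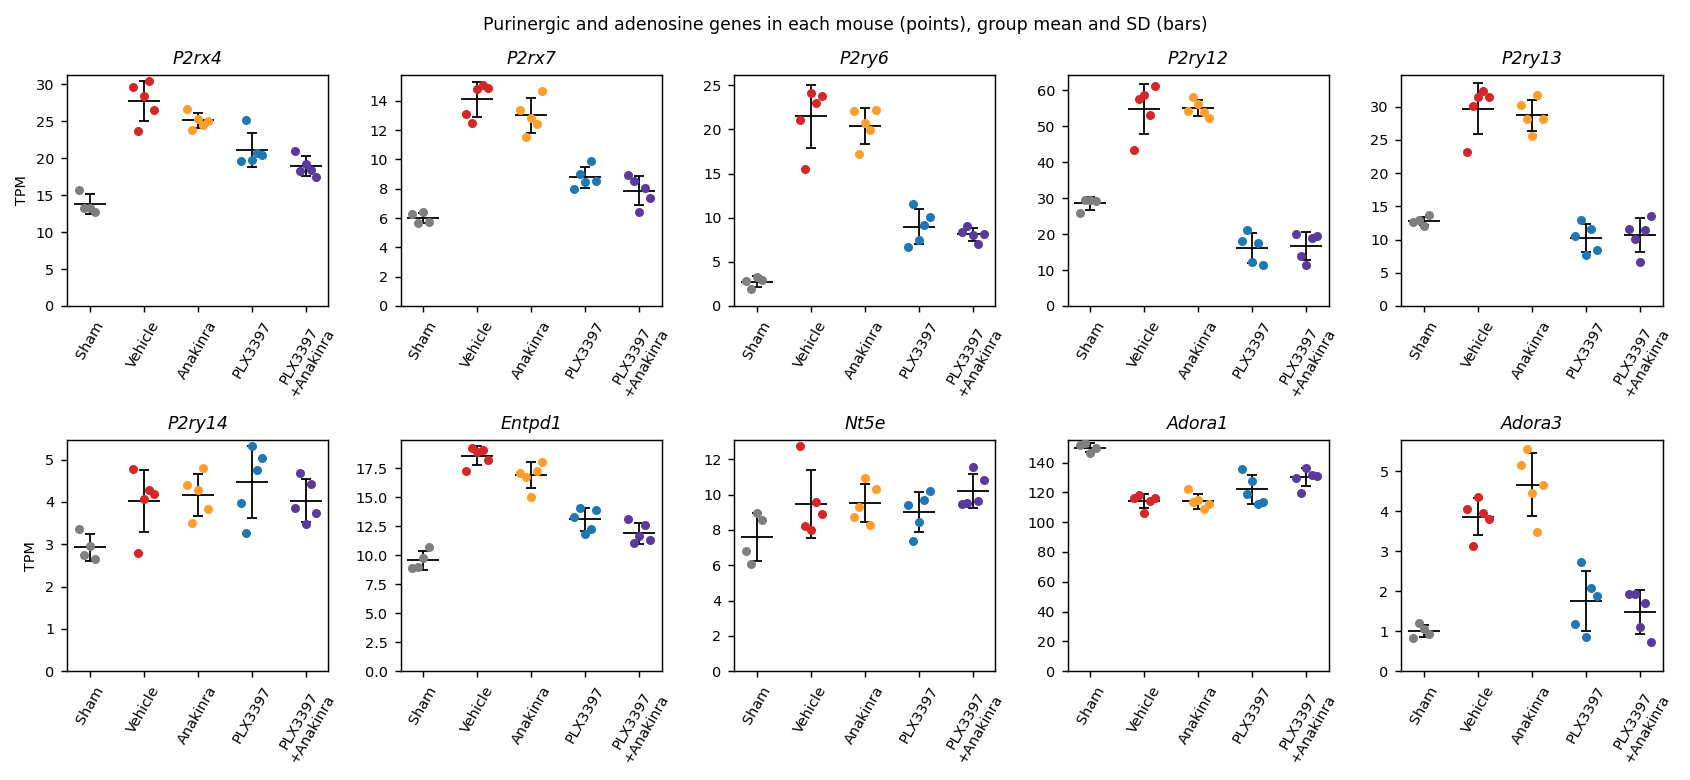
TPM (y axis, from 0, a scale of its own per gene) of the 10 genes in each of the 24 mice (points), by group, with black bars for the mean and the SD. P2ry6 goes from a mean of 2.76 TPM in Sham to 21.5 TPM in Vehicle, P2ry12 falls below the Sham mice in both groups given PLX3397, and Adora1 is highest in Sham.

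Among the P2Y receptors, P2ry6 had the largest fold change, while P2ry12 had the largest difference in TPM (26.4 against 18.8 TPM for P2ry6). This receptor for UDP is known for its role in microglial phagocytosis. It was at 2.85, 1.92, 3.32 and 2.96 TPM in the Sham mice and at 21.1, 15.5, 24.2, 23.0 and 23.8 TPM in the Vehicle mice. The lowest Vehicle mouse, J17B, was thus well above the highest Sham mouse, and the group mean was 7.79 times the Sham mean. The log2 fold change was 2.58 (standard error 0.135, adjusted p = 5.16e-14 in limma).

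The ADP receptors P2ry12 and P2ry13 rose too, with smaller fold changes than P2ry6. P2ry12 was at 25.9, 29.3, 29.5 and 29.1 TPM in Sham and at 43.3, 57.6, 58.8, 53.2 and 61.1 TPM in Vehicle, a log2 difference of 0.91 (standard error 0.15, adjusted p = 1.34e-05). For P2ry13 the Sham mice were at 12.6, 12.9, 12.1 and 13.6 TPM and the Vehicle mice at 23.1, 30.02, 31.5, 32.3 and 31.4 TPM, a log2 difference of 1.14 (standard error 0.142, adjusted p = 2.23e-07). In both genes the groups did not overlap, and the same Vehicle mouse, J01B, was the lowest of its group.

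The UDP-glucose receptor P2ry14, the remaining gene of the row on chromosome 3, was at low levels. Its Sham values were 3.37, 2.74, 2.97 and 2.65 TPM and its Vehicle values 4.77, 2.79, 4.07, 4.27 and 4.18 TPM. The groups overlapped through mouse J17B, and the log2 fold change was 0.34 (standard error 0.12, adjusted p = 0.0191). Without Vehicle mouse J01B the adjusted p was 0.0551 in limma, and without Sham mouse J16 it was 0.0574.

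Both ATP-gated channels rose. P2rx4, an ATP-gated cation channel that microglia express, was at 15.7, 13.2, 13.3 and 12.8 TPM in Sham and at 29.6, 23.6, 28.4, 30.4 and 26.5 TPM in Vehicle. P2rx7, the low-affinity ATP receptor upstream of inflammasome activation and interleukin-1β release, was at 6.26, 5.63, 6.38 and 5.73 TPM in Sham and at 13.1, 12.5, 14.8, 15.1 and 14.8 TPM in Vehicle. In both genes each Vehicle mouse was above each Sham mouse. The log2 fold changes were 0.96 for P2rx4 (standard error 0.0763, adjusted p = 1.2e-10) and 1.10 for P2rx7 (standard error 0.0835, adjusted p = 4.64e-11).

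The 2 enzymes of the path from ATP to adenosine differed in how far they moved. Entpd1 was at 8.88, 8.99, 9.79 and 10.7 TPM in Sham and at 17.3, 19.3, 18.9, 19.1 and 18.2 TPM in Vehicle, without overlap (log2 fold change 0.89, standard error 0.0665, adjusted p = 3.82e-11). Nt5e was at 6.79, 6.1, 8.95 and 8.58 TPM in Sham and at 12.8, 8.2, 8.0, 9.58 and 8.91 TPM in Vehicle. The Nt5e groups overlapped, the highest Vehicle value belonged to mouse J01B, and the log2 fold change of 0.28 (standard error 0.119) was just past the threshold (adjusted p = 0.0479). Without mouse J01B it was 0.18 with an adjusted p of 0.171 in limma, and without Sham mouse J08 it was 0.19 with an adjusted p of 0.2. Within single mice, the ratio of Entpd1 to Nt5e in TPM was 1.28 ± 0.157 (SD, n = 4) in Sham and 2.02 ± 0.412 (SD, n = 5) in Vehicle.

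The adenosine receptors moved in opposite directions. Adora1, which couples to inhibitory G proteins, had the highest TPM of the 10 genes. It was at 151, 153, 146 and 149 TPM in Sham and at 116, 118, 106, 114 and 116 TPM in Vehicle. Every Vehicle mouse was below every Sham mouse, and Adora1 fell by 0.39 on the log2 scale (standard error 0.0498, adjusted p = 3.37e-07). Adora3 was at 0.838, 1.2, 1.06 and 0.928 TPM in Sham and at 4.06, 3.14, 4.36, 3.97 and 3.8 TPM in Vehicle (log2 fold change 1.28, standard error 0.172, adjusted p = 7.95e-07), again without overlap. It had the lowest TPM of the 10 genes in Sham. Neuronal markers moved with Adora1: 0 of 8 were called higher and 7 of 8 lower in Vehicle than in Sham, with a median log2 fold change of -0.65. Their summed level was 6530 to 6860 TPM in Sham and 3950 to 4800 TPM in Vehicle. The separate list of 7 striatal projection neuron genes did not fall in this way, with a summed level of 1340 to 1550 TPM in Sham and 1180 to 1780 TPM in Vehicle. Microglial markers moved with the genes that rose, 10 of 10 called higher with a median log2 fold change of 1.77. Their part in the changes of the purinergic genes was not tested.

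To ask what CSF1R blockade did to these genes after injury, PLX3397 mice were compared with Vehicle mice. PLX3397 lowered 7 of the 10 genes, namely P2ry12, P2ry13, P2ry6, Adora3, P2rx7, Entpd1 and P2rx4 in the order of their log2 fold changes, and raised 0. P2ry14, Nt5e and Adora1 were not called. Over all genes tested, 6.66% were called lower and 3.23% higher. The median log2 fold change of the 10 genes was -0.55, and that of all genes tested was 0.01. PLX3397 and Vehicle mice did not overlap for 6 of the 10 genes, against 6.89% of all genes tested.

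P2ry12 had the largest loss. It was at 18, 21.2, 12.2, 17.5 and 11.5 TPM with PLX3397, so that the highest treated mouse had less than the lowest Vehicle mouse at 43.3 TPM and also less than the lowest Sham mouse at 25.9 TPM. P2ry12 fell by 1.74 on the log2 scale against Vehicle (standard error 0.141, adjusted p = 7.81e-09). P2ry13 was at 10.6, 12.9, 7.71, 11.5 and 8.47 TPM and fell by 1.46 (standard error 0.134, adjusted p = 3.58e-08). P2ry6 was at 6.66, 11.5, 7.52, 9.19 and 10.1 TPM, below every Vehicle mouse and above every Sham mouse, and fell by 1.18 (standard error 0.127, adjusted p = 3.63e-07).

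The channels and Entpd1 had smaller fold changes. With PLX3397, P2rx7 was at 7.98, 9.03, 8.45, 9.87 and 8.51 TPM and fell by 0.62 (standard error 0.0787, adjusted p = 3.55e-06). P2rx4 was at 19.7, 25.2, 19.8, 20.7 and 20.4 TPM and fell by 0.37 (standard error 0.072, adjusted p = 0.000878). Mouse J02, the highest of the PLX3397 mice for P2rx4, overlapped with the Vehicle mice, of which the lowest was at 23.6 TPM. Entpd1 was at 13.3, 14.1, 11.9, 12.3 and 13.9 TPM and fell by 0.48 (standard error 0.0627, adjusted p = 6.42e-06), with each treated mouse between the Sham and the Vehicle mice.

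Adora3 was at 1.17, 2.74, 0.848, 2.08 and 1.89 TPM with PLX3397 and fell by 0.86 (standard error 0.162, adjusted p = 0.000651), below every Vehicle mouse. Adora1 was at 136, 119, 128, 112 and 114 TPM, which overlapped with Vehicle, and its difference was 0.09 (95% confidence interval -0.0092 to 0.18, adjusted p = 0.277). The differences of P2ry14 and Nt5e were 0.12 (95% confidence interval -0.11 to 0.36) and -0.05 (95% confidence interval -0.29 to 0.18), so neither interval reaches the loss of P2ry6 or P2ry12.

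**Figure D2:**
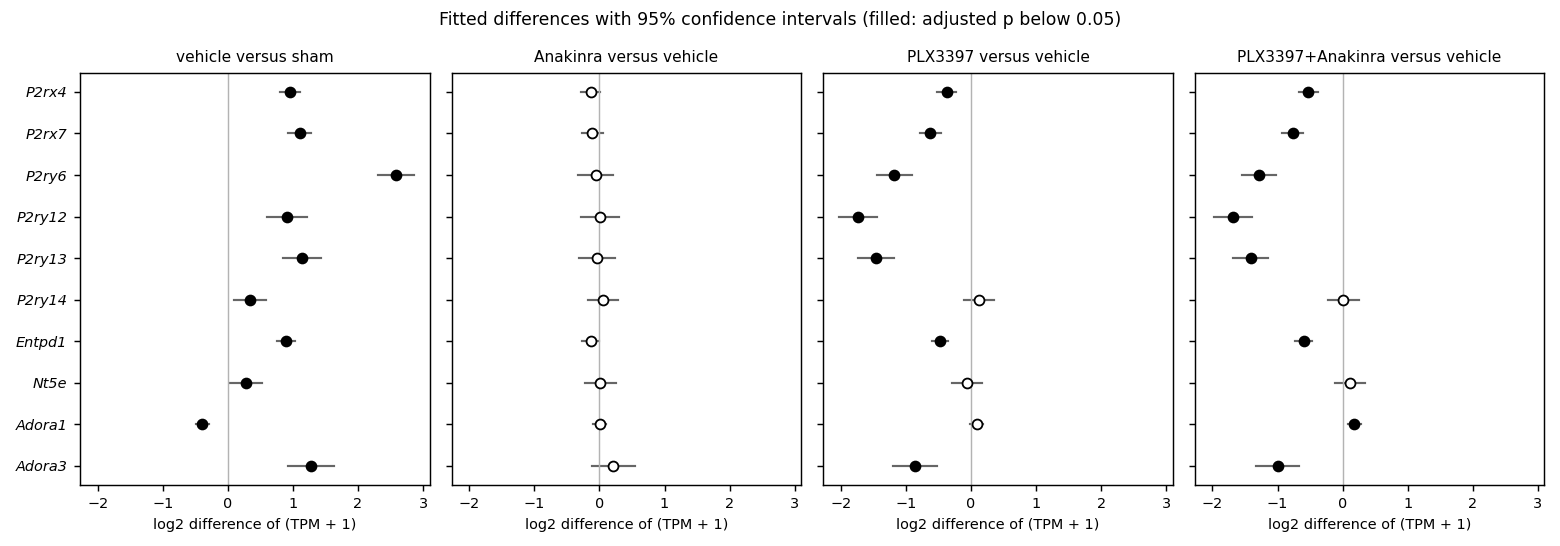
Differences in log2(TPM + 1) (x axis) of the 10 genes from the limma fit in 4 comparisons, with 95% confidence intervals as lines and filled points for adjusted p below 0.05. With Anakinra all points are open and lie between -0.13 and 0.21, and with PLX3397 and PLX3397+Anakinra P2ry12 lies farthest to the left.

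Anakinra alone called 0 of the 10 genes against Vehicle in limma, and 1 of the 10, Entpd1 (-0.13, adjusted p = 0.385), was below 0.05 before adjustment. Over all genes tested, 0.116% were called, and 2148 genes were below 0.05 before adjustment. The confidence intervals show how large a change was still possible: -0.28 to 0.31 for P2ry12, -0.32 to 0.20 for P2ry6 and -0.27 to 0.05 for P2rx7. P2ry12 was at 54.3, 58.0, 56.2, 53.9 and 52.3 TPM with Anakinra, all within the range of the Vehicle mice. P2rx7, whose product acts upstream of the cytokine whose receptor Anakinra blocks, was at 13.4, 11.5, 12.8, 12.4 and 14.7 TPM. For all 10 genes the Anakinra and Vehicle mice overlapped, and only 2.57% of all genes tested did not overlap in this comparison.

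PLX3397+Anakinra was compared with the same 5 Vehicle mice, so its values and those of PLX3397 share their control. It lowered the 7 genes that PLX3397 lowered and raised Adora1. Of all genes tested, 9.6% were called lower and 7.88% higher. The median log2 fold change of the 10 genes was -0.68, and that of all genes tested was 0.01. PLX3397+Anakinra and Vehicle mice did not overlap for 8 of the 10 genes, against 10.7% of all genes tested.

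With PLX3397+Anakinra, P2ry12 was at 20.02, 13.8, 11.4, 18.8 and 19.5 TPM (log2 fold change -1.68, standard error 0.141, adjusted p = 2.97e-09). P2ry6 was at 8.35, 9.01, 8.09, 7.03 and 8.18 TPM (log2 fold change -1.29, standard error 0.127, adjusted p = 3.63e-08), again between the Sham and the Vehicle mice. P2rx4 was at 21, 18.3, 19.2, 18.4 and 17.4 TPM, which unlike with PLX3397 alone did not overlap with Vehicle (log2 fold change -0.53, standard error 0.072, adjusted p = 6.27e-06). The groups differed in overlap through a single PLX3397 mouse, and the direct comparison of the 2 drug groups is given below with its test.

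P2rx7 was at 8.92, 8.55, 6.43, 8.04 and 7.35 TPM (log2 fold change -0.77, standard error 0.0787, adjusted p = 6.17e-08). Entpd1 was at 13.1, 11.0, 11.7, 12.6 and 11.3 TPM (log2 fold change -0.60, standard error 0.0627, adjusted p = 9.31e-08). P2ry13 and Adora3 had log2 fold changes of -1.41 (standard error 0.134, adjusted p = 1.73e-08) and -1.0 (standard error 0.162, adjusted p = 7.03e-05). Adora1 was at 130, 120, 136, 132 and 131 TPM, each above each Vehicle mouse and below each Sham mouse (log2 fold change 0.18, standard error 0.047, adjusted p = 0.00771). Neuronal markers moved with it: 5 of 8 were called higher with PLX3397+Anakinra than with Vehicle, with a median log2 fold change of 0.22, and 3 of 8 with PLX3397, with a median of 0.16.

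To ask what either drug added to the other, PLX3397+Anakinra was compared with each drug alone. Against PLX3397, 0 of the 10 genes were called in limma and 1, P2rx4 (-0.15, 95% confidence interval -0.30 to -0.0047), was below 0.05 before adjustment, while 0.151% of all genes tested were called and 1159 were below 0.05 before adjustment. The intervals of P2ry12 (-0.23 to 0.35) and P2ry13 (-0.23 to 0.32) allow a small difference in either direction. Against Anakinra, PLX3397+Anakinra lowered the same 7 genes as PLX3397 did against Vehicle and raised Adora1, where 8.1% of all genes tested were called lower and 4.67% higher. The interaction is what Anakinra changed on top of PLX3397 less what it changed on top of Vehicle, in log2 units. It was called for 0 of the 10 genes in limma and was below 0.05 before adjustment for 0 of them. Over all genes it was called for 0% and below 0.05 before adjustment for 1395. The interactions of the 10 genes lay between -0.35 (Adora3, 95% confidence interval -0.82 to 0.13) and 0.15 (Nt5e, 95% confidence interval -0.18 to 0.48).

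How far the treated mice returned toward Sham was given as the share of the difference between the Vehicle and Sham means, in TPM, that was removed in each treated mouse. The error of these 2 means is not part of the SD, and P2ry14 and Nt5e are left out because their difference between Vehicle and Sham was only 1.08 and 1.89 TPM. With PLX3397, 147% ± 15.7 (SD, n = 5) of the injury difference of P2ry12 and 115% ± 12.7 of that of P2ry13 was removed, so P2ry12 went past the Sham level. For the genes in between it was 74.1% ± 26.3 for Adora3, 66.7% ± 10.4 for P2ry6, 65.6% ± 8.91 for P2rx7, 61.1% ± 10.8 for Entpd1 and 47.0% ± 16.5 for P2rx4 (SD, n = 5 each). PLX3397+Anakinra removed 145% ± 14.6 for P2ry12, 71.4% ± 3.81 for P2ry6, 76.9% ± 12.3 for P2rx7, 73.7% ± 9.79 for Entpd1 and 63.3% ± 9.65 for P2rx4 (SD, n = 5 each). For Adora1, whose level fell with injury, 20.8% ± 27.6 of the loss was removed with PLX3397 and 43.5% ± 16.8 with PLX3397+Anakinra. The spread of single mice is wide for Adora1 and Adora3, and the order of the genes within the middle group lies within it.

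**Figure D3:**
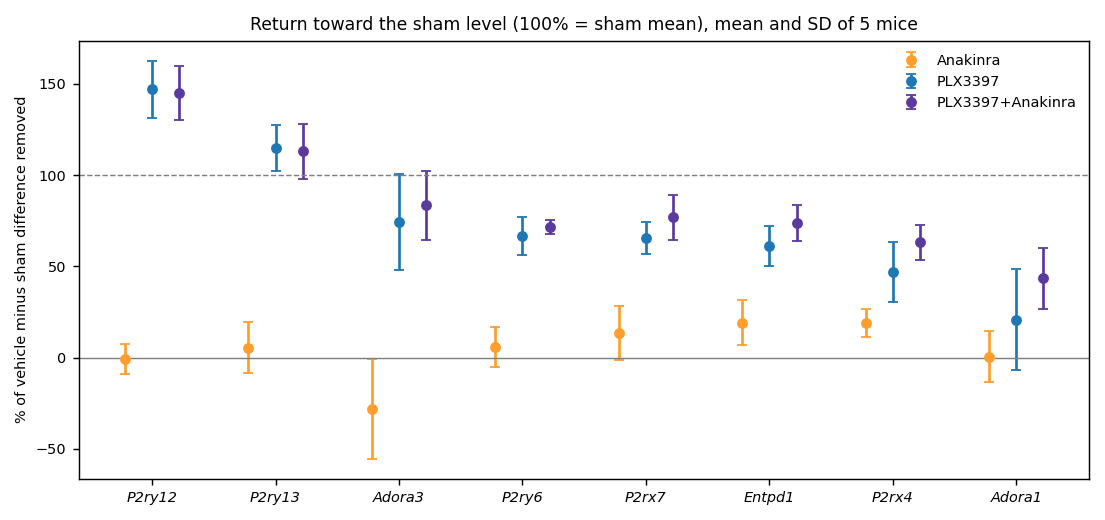
Share of the difference between the Vehicle and Sham means, in TPM, that was removed in the treated groups (y axis, percent), for 8 genes, as mean and SD of 5 mice. The dashed line at 100% is the Sham mean. P2ry12 lies above it with PLX3397 (147%) and PLX3397+Anakinra (145%), and with Anakinra the means lie between -28.1% (Adora3) and 19.1% (Entpd1).

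Compared with Sham directly, PLX3397 mice kept 5 of the 10 genes above the uninjured level (P2ry6, P2rx4, P2rx7, P2ry14 and Entpd1, against 22.7% of all genes tested) and had 2 below it (P2ry12 and Adora1, against 22.5%). P2ry12 was lower than in Sham by 0.82 on the log2 scale (log2 fold change -0.82, standard error 0.15, adjusted p = 7.74e-05). P2ry13 was not called (-0.32, adjusted p = 0.0726), and nor was Adora3 (0.41, adjusted p = 0.0535). Without PLX3397 mouse J02, P2ry13 was called (-0.40, adjusted p = 0.0282 in limma), and without mouse J12 Adora3 was (0.54, adjusted p = 0.00897 in limma). P2ry6 stayed 1.40 above Sham (standard error 0.135, adjusted p = 7.61e-09). With PLX3397+Anakinra, 6 genes were higher than in Sham (the same 5 and Nt5e, against 20.7% of all genes tested) and P2ry12 and Adora1 were lower (against 18.1%). Of these, P2ry14 (0.35, adjusted p = 0.0218) and Nt5e (0.39, adjusted p = 0.0103) were both lost without Sham mouse J08 (adjusted p = 0.0568 and 0.0583 in limma). With Anakinra, 9 genes were higher (25.1% of all genes tested) and Adora1 was lower (29.2%), as in Vehicle. The Nt5e call with Anakinra (0.30, adjusted p = 0.037) was also lost without Sham mouse J08 (adjusted p = 0.164 in limma).

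Within single mice, the balance between the UDP receptor P2ry6 and the ADP receptor P2ry12 moved from 0.0975 ± 0.0218 (SD, n = 4) in Sham to 0.398 ± 0.0804 (SD, n = 5) in Vehicle, as the ratio of their TPM. It stood at 0.373 ± 0.0493 in Anakinra mice, 0.588 ± 0.188 in PLX3397 mice and 0.515 ± 0.154 in PLX3397+Anakinra mice (SD, n = 5 each). The lowest injured mouse was at 0.269 and the highest Sham mouse at 0.112, so the ratio did not overlap between injured and Sham mice in any treatment group. P2rx4 was at 0.487 ± 0.0796 of P2ry12 in Sham (SD, n = 4) and at 0.516 ± 0.112 in Vehicle, but at 1.37 ± 0.307 with PLX3397 and 1.19 ± 0.321 with PLX3397+Anakinra (SD, n = 5 each). In these mice P2rx4 was therefore at about the TPM of P2ry12 or above it. P2ry12 and P2ry13 kept a closer ratio, from 2.23 ± 0.168 in Sham (SD, n = 4) to 1.56 ± 0.133 with PLX3397 (SD, n = 5).

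Since microglial markers moved in the same comparisons, each gene was also expressed relative to the mean log2(TPM + 1) of the 10 microglial markers in the same mouse. The marker mean was 4.79 in Sham, 6.58 in Vehicle, 6.60 in Anakinra, 5.34 in PLX3397 and 5.26 in PLX3397+Anakinra mice. A gene whose level stays the same rises on this scale when the markers fall. Each group was compared with Vehicle in 40 two-sided exact permutation tests with Benjamini-Hochberg adjustment, of which 25 were called. No share of all genes was computed on this scale. Adora1, Nt5e and P2ry14, which limma did not call with PLX3397, were called here as the markers fell. The count of 25 therefore depends on the markers as well as on these genes. The markers also include Csf1r, the receptor that PLX3397 blocks. The smallest p that groups of 4 or 5 against 5 mice allow is 0.00794, and 0.0144 after adjustment.

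P2ry12 fell further than the markers with PLX3397: it was at -0.79 ± 0.185 (SD, n = 5) in Vehicle and at -1.28 ± 0.267 (SD, n = 5) with PLX3397, a difference of -0.49 (exact p = 0.0159, adjusted p = 0.0265). Against 8 border macrophage genes in place of the microglial markers the difference was -0.59 and was not called (adjusted p = 0.0977 by the exact permutation test). With PLX3397+Anakinra its difference was -0.36 (exact p = 0.0397, adjusted p = 0.0611), which was not called, but it was with Csf1r and Cx3cr1 left out of the markers (-0.40, adjusted p = 0.047 by the exact permutation test). For P2ry6 the differences were 0.07 (exact p = 0.484) with PLX3397 and 0.03 (exact p = 0.762) with PLX3397+Anakinra, and neither was called. Against the border macrophage genes P2ry6 was higher by 0.55 with PLX3397+Anakinra (adjusted p = 0.0144 by the exact permutation test). P2ry13 had differences of -0.21 (exact p = 0.0556) and -0.09 (exact p = 0.5). For P2rx4, P2rx7 and Entpd1 the fall was smaller than that of the markers, with differences of 0.87, 0.62 and 0.77 with PLX3397 (exact p = 0.00794 and adjusted p = 0.0144 each). All 5 treated mice were above all 5 Vehicle mice in these genes.

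Injury gave another order. Relative to the markers, P2ry12 was at 0.09 ± 0.0531 in Sham (SD, n = 4) and lower in Vehicle by 0.88, and P2rx4, P2rx7, Entpd1 and P2ry13 were lower in Vehicle than in Sham too (exact p = 0.00794 and adjusted p = 0.0144 each). P2ry6 rose more than the markers, from -2.90 ± 0.241 in Sham (SD, n = 4) to -2.11 ± 0.146 in Vehicle (SD, n = 5; exact p = 0.00794, adjusted p = 0.0144). Adora1, Nt5e and P2ry14 had differences of 1.33, 1.19 and 1.37 with PLX3397, near the fall of the marker mean itself. With Anakinra P2rx4 was the 1 gene called (-0.15, exact p = 0.0159, adjusted p = 0.0265), a difference that did not hold against a list of border macrophage genes (0.0101, adjusted p = 0.937 by the exact permutation test). With Csf1r and Cx3cr1 left out of the markers, Entpd1 was called with Anakinra too (-0.17, adjusted p = 0.047 by the exact permutation test).

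**Figure D4:**
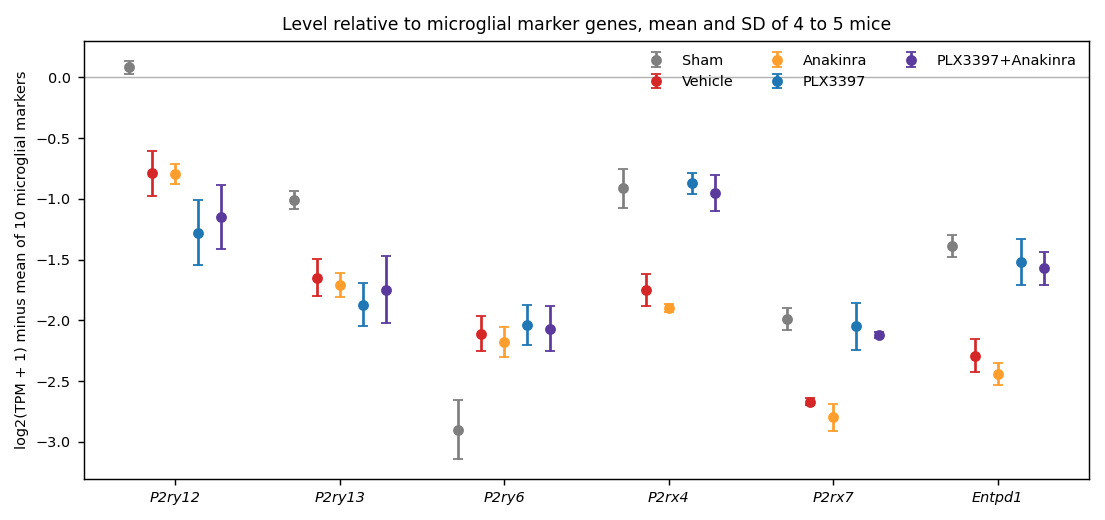
Level of 6 genes as log2(TPM + 1) minus the mean log2(TPM + 1) of 10 microglial markers in the same mouse (y axis), by group, as mean and SD of 4 Sham mice or 5 mice per other group. P2ry12 lies lowest with PLX3397 (-1.28), P2ry6 lies lowest in Sham (-2.90), and P2rx4, P2rx7 and Entpd1 are higher with PLX3397 and PLX3397+Anakinra than in Vehicle.

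Markers of other cell types that carry these receptors were read alongside. Of 8 genes of brain border macrophages, 6 were called higher and 1 lower in Vehicle than in Sham, and 7 were lower with PLX3397 (median log2 fold change -1.13) and with PLX3397+Anakinra (median -2.0). Their summed level was 141 to 281 TPM in Vehicle, 66.9 to 119 TPM with PLX3397 and 41.4 to 52.2 TPM with PLX3397+Anakinra. Of 6 monocyte and neutrophil genes tested, 6 were called higher in Vehicle than in Sham, and 2 were lower with PLX3397, 1 with Anakinra and 2 with PLX3397+Anakinra. The summed level of that list was 6.01 to 8.85 TPM in Sham, 19.9 to 55.3 TPM in Vehicle and 26.2 to 69.4 TPM with PLX3397. None of the 8 lymphocyte genes had a mean of 0.5 TPM over all libraries. Markers of several other cell types also rose with injury: 6 of 7 astrocyte genes (median log2 fold change 0.55), 5 of 6 oligodendrocyte genes (0.39), 4 of 6 endothelial genes (0.37) and 6 of 7 genes of fibroblasts and meninges (1.49) were called higher in Vehicle than in Sham, and 0 were called lower. With the drugs, of 7 astrocyte genes 1 was higher with PLX3397 and 1 with PLX3397+Anakinra and 0 were lower, and of 6 endothelial genes 0 were called with either. Genes of fibroblasts and meninges, some of which are known to carry Nt5e, had a summed level of 115 to 724 TPM in Vehicle and 479 to 1150 TPM with PLX3397, with 4 of 7 called higher and 1 lower. The part of these cells in the purinergic genes was not tested.

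The wider purinergic system was read from a list of 38 further genes, of which 30 passed the minimum of 0.5 TPM. Injury raised 13 and lowered 7 of the 30 (median log2 fold change 0.16), where 26.6% of all genes tested were called higher and 27.7% lower. PLX3397 raised 1 and lowered 3 (median 0.02), against 3.23% and 6.66% of all genes. PLX3397+Anakinra raised 1 and lowered 4 (median 0.01), against 7.88% and 9.6%, and Anakinra called 0 in limma, against 0.116%. No test set this list against all genes, and the difference between this list and the 10 genes was not tested.

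Some of these genes rose with injury and were lower with PLX3397 and PLX3397+Anakinra. Pnp, the phosphorylase that splits inosine and guanosine, rose from 17.4 to 44.8 TPM with injury (log2 fold change 1.31, adjusted p = 3.38e-12) and was lower with PLX3397 (-0.30, adjusted p = 0.0183) and PLX3397+Anakinra (-0.40, adjusted p = 0.00101). Slc29a3, an equilibrative nucleoside transporter of inner membranes, rose from 11.4 to 26.1 TPM (1.13, adjusted p = 1.06e-13) and was lower with PLX3397 (-0.45, adjusted p = 4.5e-06) and PLX3397+Anakinra (-0.60, adjusted p = 2.71e-08). Slc17a9, the transporter that loads ATP into vesicles, rose with injury (0.65, adjusted p = 0.000864) and was lower with PLX3397 (-0.51, adjusted p = 0.0219) and PLX3397+Anakinra (-0.56, adjusted p = 0.00778), at 1.26 TPM or less in these groups. The same directions were called for 7 of the 10 genes described above.

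Other genes had another pattern. Gja1, the astrocytic connexin whose hemichannels can release ATP, rose from 166.6 to 364.6 TPM with injury (1.12, adjusted p = 1.7e-13). It was at 340.6 TPM with PLX3397 (-0.10, adjusted p = 0.353) and lower with PLX3397+Anakinra (-0.18, adjusted p = 0.0379). Enpp1, an ectonucleotidase that splits ATP to AMP, rose (1.04, adjusted p = 1.42e-06) and was not called with PLX3397 (0.08, adjusted p = 0.801). Panx2, a pannexin of neurons, fell by 0.74 with injury (adjusted p = 8.12e-07) and was higher with PLX3397+Anakinra (0.30, adjusted p = 0.0263). The ATP receptor P2ry2 rose with injury (0.76, adjusted p = 0.000107) and its difference was -0.23 with PLX3397 (adjusted p = 0.357).

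Of the set genes, Adora2a, the adenosine receptor of striatal projection neurons, was at 69.7 TPM in Sham and 71.8 TPM in Vehicle (0.03, adjusted p = 0.886). P2ry1, an ADP receptor found on astrocytes, rose by 0.62 (adjusted p = 6.43e-06) and was not called with PLX3397 (-0.03, adjusted p = 0.887), whereas P2ry12 and P2ry13 were, and the difference between these genes was not tested. P2rx5 was near 1 TPM and was not called in Vehicle against Sham (0.08, adjusted p = 0.506). The nucleoside transporter Slc29a1 rose by 0.24 (adjusted p = 0.0044) and its difference was -0.03 with PLX3397 (adjusted p = 0.821).

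**Figure D5:**
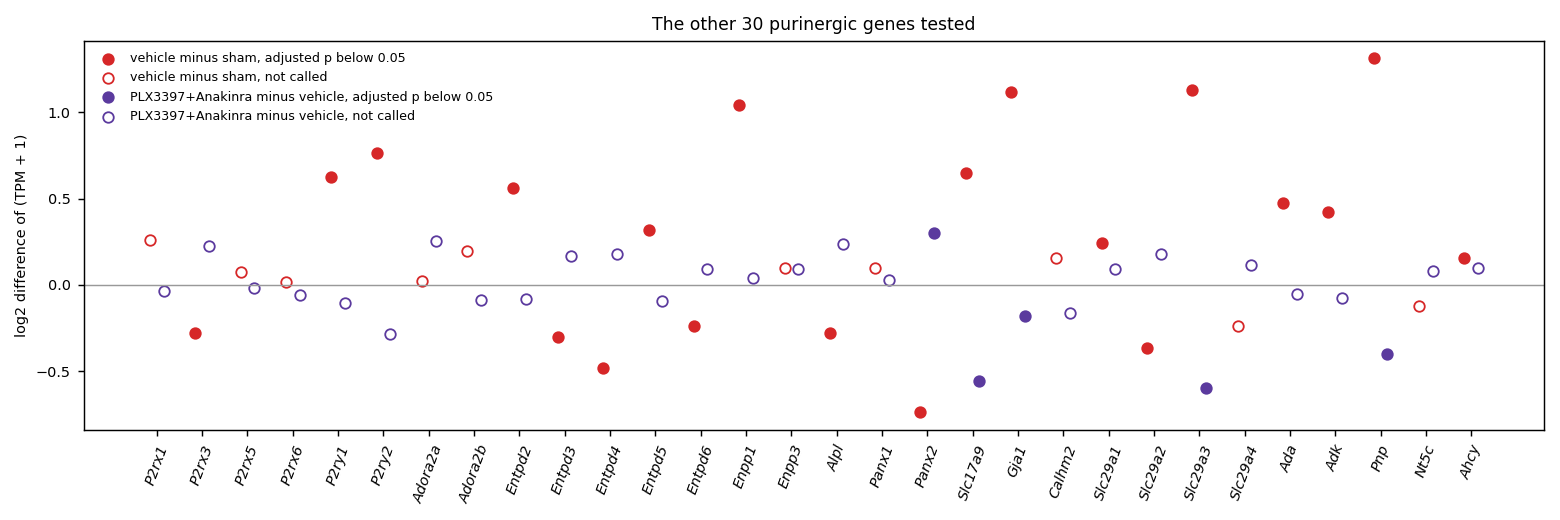
Differences in log2(TPM + 1) (y axis) of 30 further purinergic genes (x axis) for Vehicle minus Sham (red) and PLX3397+Anakinra minus Vehicle (purple), filled where adjusted p was below 0.05. Pnp, Slc29a3, Gja1 and Enpp1 lie above 1 with injury, and 5 genes are filled in purple.

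Genes next to the receptors on the chromosome were read to see whether they moved along. Med12l, which contains P2ry12, P2ry13 and P2ry14, was at 17.8 TPM in Sham and 15 TPM in Vehicle (log2 fold change -0.23, adjusted p = 0.00637) and at 13.7 TPM with PLX3397 (-0.12, adjusted p = 0.292). It thus had the opposite sign to its inner genes with injury. Camkk2, the gene after P2rx4, fell by 0.75 with injury (adjusted p = 7.67e-08) and its difference was 0.06 with PLX3397 (adjusted p = 0.731). Anapc5 fell by 0.08 (adjusted p = 0.0387), Siah2 was not called (-0.18, adjusted p = 0.0643), and Gpr171 was under the minimum of 0.5 TPM.

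The genes whose log2(TPM + 1) over the 24 libraries was most like that of a receptor were found by Pearson's r over all genes tested. These values describe libraries that share the injury and the treatments, and within-group r is taken after the group means are subtracted. For P2ry12 they were P2ry13 (r = 0.97, within groups 0.87), the microglial gene Siglech (0.97, within groups 0.58) and the fructose transporter Slc2a5 (0.96, within groups 0.56). For P2ry6 they included Fyb and LOC108167440 (0.99 each, within groups 0.87 and 0.75). P2rx4 was most like Tgfbr2, Rac2 and Myo1f (0.98 each, within groups 0.81, 0.84 and 0.75). Adora1 was most like Wbp2 (0.97), Chst1 and Ube2ql1 (0.96 each), with within-group values of 0.87, 0.87 and 0.80. The values for Nt5e were lower, with Gpr149 at 0.80, A630034I12Rik at 0.77 and Hip1 at 0.74.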

How the data were processed

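RNA-seq libraries of 24 mice were used, 1 per mouse. The deposited values are TPM, which the authors made from paired-end reads by trimming, mapping and counting in CLC Genomics Workbench with mm10 (GRCm38) annotation. The full-precision table was used, and the second table, the same values rounded, was an alternative. Another table, with a filtered gene set and the authors' own test values, was not used. TPM is not a count, so depth is unknown. Genes that averaged 0.5 TPM or more were tested with limma 3.58.1 (R 4.3.3) on log2(TPM + 1), in 1 fit over all 5 groups with a variance trend, and p-values were adjusted over 17267 genes by the Benjamini-Hochberg method (threshold 0.05). The fit was tested on simulated data. The study tested differences in TPM with fold and difference limits, which was an alternative here. Levels relative to markers were compared by exact permutation. Loci were taken from GENCODE and promoters from RefSeq by symbol. The 10 genes, the marker and purinergic lists and the motifs were chosen with earlier results of these data known. Named were the 10 genes, at most 8 further purinergic genes with the largest called changes plus 4 set ones, their neighbours, and the 3 most similar genes of 5 members. Libraries are separate mice, and group sizes are 4 or 5. A few genes that this rule names are not reported here.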

Additional observations from a re-analysis of the deposited data

Results flagged for a closer look

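A mouse was singled out when its gap to the nearest mouse of the same group, divided by the range of the group, was above Dixon's 95% critical value (0.829 for 4 mice and 0.71 for 5). Of 50 groups examined (10 genes in 5 groups), 3 had such a mouse, where chance gives about 1 in 20. P2rx4 in PLX3397 mouse J02 was at 25.2 TPM, with the nearest mouse at 20.7 TPM (ratio 0.814). P2ry12 in Sham mouse J07 was at 25.9 TPM, with the nearest at 29.1 TPM (ratio 0.883). P2ry13 in Vehicle mouse J01B was at 23.1 TPM, with the nearest at 30.02 TPM (ratio 0.75).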

How the results depend on the processing

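The settings tried were a pseudocount of 0.1, all genes above 0 TPM, a mean of at least 5 TPM, median ratio scaling, the rounded table, the compared groups only, no variance trend, array weights, a block on the animal number, each mouse left out in turn, and the limits of the study (p below 0.05, ratio above 2, difference above 4 TPM). Only the limits of the study moved a count by over 1.5 times, by their construction: 4 of the 10 genes (P2ry6, P2ry13, P2rx7 and P2rx4) for Vehicle versus Sham, 3 (P2ry12, P2ry13 and P2ry6) for each of PLX3397 versus Vehicle, PLX3397+Anakinra versus Vehicle, PLX3397+Anakinra versus Anakinra and PLX3397 versus Anakinra, 1 (P2ry6) each for PLX3397 and PLX3397+Anakinra versus Sham, and 3 for Anakinra versus Sham. Of the other purinergic genes, 4 passed them in at least 1 comparison, against 21 called at the main setting. These counts leave out the drug groups versus Sham and PLX3397 versus Anakinra. With 1 mouse left out, counts lay between 8 (without Vehicle mouse J01B) and 10 for Vehicle versus Sham, 7 and 7 for PLX3397 versus Vehicle, 8 and 8 for PLX3397+Anakinra versus Vehicle and 6 (without Sham mouse J08) and 9 for PLX3397+Anakinra versus Sham. The Nt5e call with injury was lost when any of 15 of the 24 mice was left out, and P2ry14 in PLX3397+Anakinra versus Sham when PLX3397+Anakinra mouse J04 or J10 or Sham mouse J08 or J16 was. The Nt5e call was also lost with all genes (adjusted p = 0.0827), the compared groups only (0.104), no trend (0.0514) and array weights (0.0583), and the cause was not tested. P2rx4 relative to border macrophage genes turned from -0.15 to 0.0101 with Anakinra. For animal numbers shared between groups, correlations of deviations were 0.173, 0.318, -0.134 and -0.0656, and the consensus correlation of the block fit was 0.247. So few shared numbers cannot decide whether they pair the mice. With the replicate block 9 genes were called for Vehicle versus Sham (Nt5e lost, adjusted p = 0.0659 in limma), with no change in the other counts. Of the 40 levels relative to markers, other marker lists changed the calls given in the report for P2rx4, P2ry6, P2ry12 and Entpd1, and those of Adora3, which against border macrophage genes was not called with PLX3397 (0.28, adjusted p = 0.147 by exact permutation) and was called with PLX3397+Anakinra (0.84, adjusted p = 0.0144).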
